A study of Homo sapiens with 6 samples.

Results

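The TNF ligand and receptor superfamilies were examined in KOPTK1 cells on 6 one-colour Affymetrix expression arrays. KOPTK1 is a cell line from human T-cell leukaemia, and its cultures received either PD0332991 at 1 µM (n = 3) or vehicle (n = 3) over 48 h, in biological triplicate per the submitters. PD0332991, also known as palbociclib, inhibits the cyclin-dependent kinases CDK4 and CDK6. All results come from this 1 cell line, at 1 dose and 1 time, in culture without other cell types. Members were all genes whose platform symbol began with TNFSF or TNFRSF and a number, together with TNF, LTA, LTB, LTBR, FAS, FASLG, CD27, CD70, CD40, NGFR, EDAR and EDA2R. The rule found 45 of the 19775 genes measured, namely 15 ligands, 27 receptors and 3 antisense or divergent transcripts that carry a receptor's symbol. CD40LG, which the rule also names, and TNFSF12 and TNFRSF6B, whose probe sets carry several symbols, were not analysed here.

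TNF superfamily ligands are mostly membrane proteins that act as trimers, and some are shed as soluble cytokines. Their receptors either recruit TRAF adaptors, which lead to NF-κB and MAP kinase signalling, or carry a cytoplasmic death domain that can lead to caspase-8 and apoptosis. In T cells the family provides costimulation after antigen recognition, helps to organise lymphoid tissue and limits the lifespan of activated cells through death receptors.

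Array medians lay between 49.1 and 54.2 intensity units, and between 24.3% and 26.5% of probe sets on each array lay below 16. Pearson r across genes was 0.993 to 0.996 between arrays of a group and 0.976 to 0.979 between groups. All 8 T-lineage markers, among them CD3D and LCK, lay above the median intensity of all genes (89.3), and 5 of them were called higher with PD0332991. Their summed intensity was 28196 to 29448 with PD0332991 and 22591 to 24932 with vehicle. None of the 5 myeloid or 3 NK markers lay above that median, and CD14 averaged 3.98 with PD0332991 and 6.43 with vehicle. Of the 5 B-lineage markers measured, CD79A and CR2 lay above the median and were called higher, while the defining B-cell genes MS4A1 and PAX5 lay below it. The summed B-lineage intensity was 3773 to 3964 with PD0332991 and 1786 to 1959 with vehicle, and CD79B, like MS4A1 and PAX5, did not pass. Of the stromal or endothelial markers, COL1A1 did not pass and PECAM1, an endothelial and leukocyte adhesion molecule, was called higher by 0.55 (adjusted p = 0.001). The summed intensity of these 2 markers was 1934 to 2031 with PD0332991 and 1316 to 1447 with vehicle. The erythroid marker HBB did not pass. The part of the T-lineage, B-lineage and PECAM1 shifts in the results was not tested.

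With PD0332991, 5 of 15 ligand genes rose and 1 fell, while 4 of 27 receptor genes rose and 2 fell. The ligands that rose were LTA, TNFSF4, TNF, TNFSF13B and LTB, and the receptors that rose were TNFRSF14, TNFRSF25, TNFRSF21 and TNFRSF1A. The ligand TNFSF9 and the TRAIL receptors TNFRSF10A and TNFRSF10C fell. Calls are from limma with Benjamini-Hochberg adjustment over all genes at a threshold of 0.05, on log2(intensity + 16), a scale that understates the change of dim genes. Over all genes 29.3% were called, 15.6% higher and 13.6% lower, and the 12 called members, 26.7% of 45, lay near that background. The share was 40.0% among ligands and 22.2% among receptors. The median log2 fold change was 0.28 over the ligands and 0.01 over the receptors, beside 0.01 over all genes. Whether ligands and receptors differ in these shares was not tested.

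**Figure D1:**
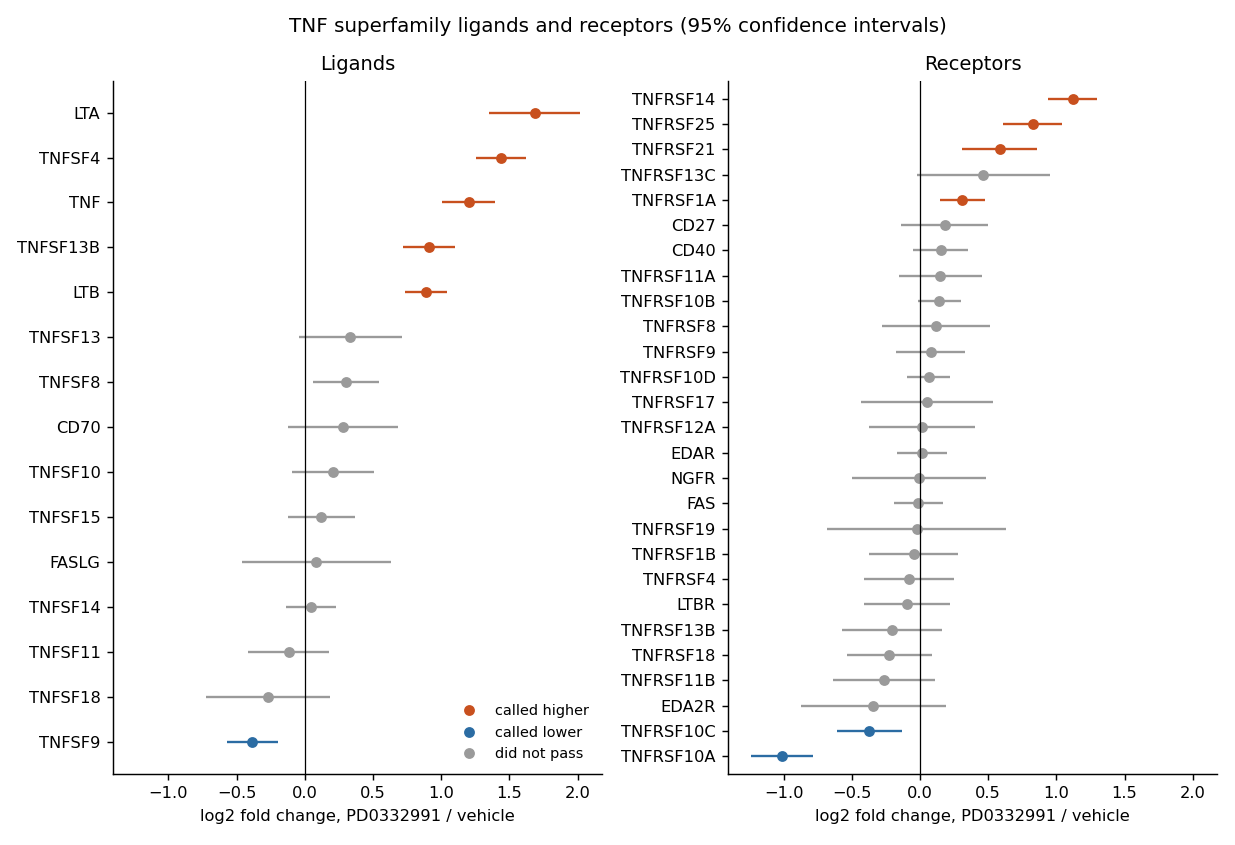
Log2 fold change of PD0332991 over vehicle (x axis) for each of the 15 ligands and 27 receptors (y axis), with 95% confidence intervals from limma as lines. The ligands reach 1.68 for LTA and the receptors run between −1.01 for TNFRSF10A and 1.12 for TNFRSF14.

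Calls were more frequent among bright genes. Of the 18 members whose mean over all 6 arrays exceeded the median of all genes, 9 were called, and of the 27 dimmer ones 3 were. Over all genes 49.5% of the brighter and 8.97% of the dimmer ones were called. Among the brighter members 4 of 6 ligands rose and none fell, and 4 of 11 receptors rose and 1 fell. The other brighter member, the antisense transcript TNFRSF14-AS1, had a log2 fold change of 0.04. Among all brighter genes 25.9% were called higher and 23.6% lower. LTA averaged 84.7 with vehicle and TNFRSF10A 54.9 with PD0332991, so each exceeded the median of all genes only through its higher group. They were the largest rise and the 1 fall among the brighter members.

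The largest change was in LTA, which encodes lymphotoxin-α, a secreted cytokine that binds the TNF receptors and joins lymphotoxin-β on the cell surface. LTA intensity was 297, 310 and 304 on the PD0332991 arrays, against 93.9, 64.2 and 95.9 on the vehicle arrays. The groups were far apart, and the vehicle arrays spread more than the treated ones in proportion to their mean. The log2 fold change was 1.68 (SE 0.14, adjusted p = 3.7e-04), or 3.21-fold.

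TNF, the founding cytokine of the family, had 410, 377 and 339 with PD0332991, against 155, 150 and 155 with vehicle. Every treated array was above every vehicle array, with a log2 fold change of 1.20 (SE 0.08, adjusted p = 1.9e-04). LTB, which anchors the lymphotoxin heterotrimer in the membrane, had 9758, 9952 and 9532 with PD0332991, against 5018, 5163 and 5601 with vehicle. Its log2 fold change was 0.89 (SE 0.06, adjusted p = 2.4e-04), so that the 3 lymphotoxin and TNF genes rose together. LTB's other probe set, dim in both groups at 75.6 ± 17.2 with PD0332991 and 68.9 ± 8.41 with vehicle (SD, n = 3 each), gave 0.10 (adjusted p = 0.731). It was the one left when probe sets with an _x or _s suffix, which can match several transcripts, were omitted.

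LTA, TNF and LTB lie next to each other on chromosome 6, in the class III region of the major histocompatibility complex, with no other protein-coding gene between them in the RefSeq table. Of the 12 protein-coding genes nearest to them, 6 on each side, 10 were measured: 2 were called higher, 3 lower and 5 did not pass. LST1, a leukocyte transcript next to LTB, was at 756 ± 3.92 with PD0332991 and 371 ± 11.1 with vehicle (SD, n = 3 each), and it was called higher by 1.00. AIF1 was called higher by 0.38 (adjusted p = 0.046), and the neighbours in between and on the other side, NCR3 at 0.0029 and NFKBIL1 at 0.16, did not pass. PRRC2A at −0.46 was called lower, as were MICA at −1.20 and MICB at −0.83, which encode ligands of the NK receptor NKG2D. These neighbours were examined after the values of the 3 ligands had been seen.

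**Figure D2:**
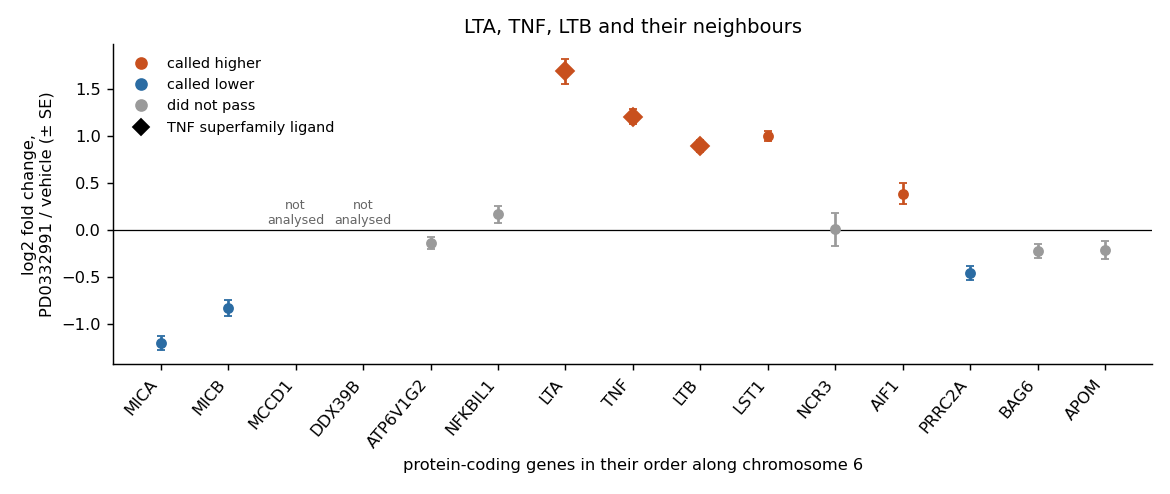
Log2 fold change (± SE, y axis) of LTA, TNF, LTB (diamonds) and the 12 protein-coding genes around them, in their order along chromosome 6 (x axis). The 3 ligands, LST1 and AIF1 were called higher, while MICA and MICB on one side and PRRC2A on the other were called lower.

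The sequences upstream of the 5 brighter members with the largest increases are shown. These genes were picked by their increases in these data, so that all 5 rose follows from the choice. Each is the 250 bases before an annotated start in RefSeq (GRCh38.p14), 5′ to 3′ on the gene's strand. Matches to the NF-κB consensus or to the AP-1 motif TGANTCA are in capitals. The windows of LTA, TNFSF4 and TNFRSF14 lie inside the RefSeq bounds of these genes, so their starts are not the outermost ones.
LTA, chr6:31571849-31572098, plus strand: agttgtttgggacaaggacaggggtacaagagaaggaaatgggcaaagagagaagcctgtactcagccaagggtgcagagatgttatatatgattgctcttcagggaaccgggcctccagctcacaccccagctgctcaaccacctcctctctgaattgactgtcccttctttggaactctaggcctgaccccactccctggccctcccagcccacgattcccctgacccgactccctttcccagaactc
TNF, chr6:31575315-31575564, plus strand: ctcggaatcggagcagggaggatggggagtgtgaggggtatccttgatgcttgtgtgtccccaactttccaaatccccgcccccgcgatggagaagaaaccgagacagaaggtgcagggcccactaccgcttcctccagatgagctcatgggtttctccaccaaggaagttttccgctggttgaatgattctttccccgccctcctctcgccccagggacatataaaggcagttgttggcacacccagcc
LTB, chr6:31582426-31582675, minus strand: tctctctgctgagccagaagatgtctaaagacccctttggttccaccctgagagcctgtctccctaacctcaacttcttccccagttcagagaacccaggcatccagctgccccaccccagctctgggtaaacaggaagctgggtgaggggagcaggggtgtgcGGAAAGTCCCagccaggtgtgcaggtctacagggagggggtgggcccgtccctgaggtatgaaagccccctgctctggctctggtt
TNFSF4, chr1:173205533-173205782, minus strand: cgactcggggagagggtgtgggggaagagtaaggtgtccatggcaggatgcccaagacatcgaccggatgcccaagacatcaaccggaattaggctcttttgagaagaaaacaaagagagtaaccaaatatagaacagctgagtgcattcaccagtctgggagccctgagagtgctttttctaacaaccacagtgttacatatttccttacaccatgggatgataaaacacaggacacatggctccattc
TNFRSF14, chr1:2556121-2556370, plus strand: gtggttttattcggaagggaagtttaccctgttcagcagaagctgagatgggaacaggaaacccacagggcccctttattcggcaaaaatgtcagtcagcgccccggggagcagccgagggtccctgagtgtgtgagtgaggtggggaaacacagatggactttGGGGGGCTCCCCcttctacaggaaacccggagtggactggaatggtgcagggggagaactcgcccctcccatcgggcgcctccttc
LTB has 1 match to the NF-κB consensus, GGAAAGTCCC, and TNFRSF14 has 3 that overlap one another in a single run. The windows of LTA, TNF and TNFSF4 hold no exact match to either motif. Runs that differ from a motif by as little as 1 letter were not counted, so a site of looser form may be present. Of the 42 ligands and receptors 28 had an entry in the promoter table. The NF-κB consensus, searched on both strands, was found in 4 of these 28 (14.3%) and in 9.57% of all 27305 promoters. Besides LTB and TNFRSF14 these were TNFRSF9 and TNFSF14, which stood at 0.08 and 0.04 and did not pass. The AP-1 motif was found in 5 of the 28 (17.9%) and in 6.60% of all. These were CD27, FAS, TNFRSF9, TNFSF14 and TNFSF15, none of which passed. The E2F motif TTTCCCGC was in none of the 28 and in 1.42% of all, and the cell cycle homology motif TTTGAA was in 4 of the 28 (14.3%) and 13.6% of all. A match is a run of letters and not a measured binding site.

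TNFSF4 encodes OX40 ligand, which costimulates T cells through TNFRSF4. Its intensity was 763, 902 and 811 with PD0332991, against 287, 300 and 295 with vehicle. The lowest treated array lay well above the highest vehicle array, with a log2 fold change of 1.44 (SE 0.08, adjusted p = 8.3e-05). On chromosome 1 TNFSF4 is next in gene order to TNFSF18 and then FASLG, which stood at −0.27 and 0.08 and did not pass.

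TNFSF13B encodes BAFF, a survival factor for B cells. It was dim, at 94.2, 76.5 and 81.2 with PD0332991, against 37.4, 37.0 and 36.8 with vehicle. The groups did not overlap, and the log2 fold change was 0.91 (SE 0.08, adjusted p = 4.6e-04), or 0.55 with a pseudocount of 64. Its second probe set was called higher as well, by 0.84.

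TNFSF9, the ligand of the costimulatory receptor TNFRSF9, was the 1 ligand that fell. Its intensity was 37.4, 45.3 and 44.7 with PD0332991, against 60.7, 63.2 and 57.0 with vehicle, so that all 6 values lay below the median of all genes. The log2 fold change was −0.39 (SE 0.08, adjusted p = 0.012), and −0.22 with a pseudocount of 64. CD70 and then TNFSF14, which follow it in gene order on chromosome 19, did not pass.

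TNFRSF14, also known as HVEM, binds TNFSF14, lymphotoxin-α and the inhibitory receptor BTLA, and had the largest increase among receptors on the brightest probe set of each gene. Of the other probe sets, 2 of CD40, both dim, gave more, at 1.13 and 1.23. TNFRSF14 intensity was 966, 1017 and 1005 with PD0332991, against 423, 436 and 492 with vehicle. The treated arrays differed little among themselves and all exceeded the vehicle arrays, with a log2 fold change of 1.12 (SE 0.07, adjusted p = 1.8e-04). The antisense transcript TNFRSF14-AS1 had 168, 169 and 174 with PD0332991 and 189, 169 and 142 with vehicle, and did not pass.

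TNFRSF25, the death domain receptor DR3 for TNFSF15, had 431, 456 and 377 with PD0332991, against 225, 220 and 246 with vehicle. The log2 fold change was 0.83 (SE 0.09, adjusted p = 0.0011). Of its 5 probe sets 3 were called higher, by 0.79 to 0.87, and the other two stood at −0.0034 and 0.24. Those 3 all carry the _x suffix, and the probe set with no such suffix gave 0.24 (adjusted p = 0.151).

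TNFRSF21, the death domain receptor DR6, had 468, 637 and 549 with PD0332991, against 356, 373 and 352 with vehicle. Treated arrays were all higher but spread widely, with a log2 fold change of 0.58 (SE 0.11, adjusted p = 0.011), and its second probe set gave 0.54. TNFRSF1A, the main receptor of soluble TNF, had 409, 449 and 443 with PD0332991, against 329, 345 and 367 with vehicle. Its log2 fold change was 0.31 (SE 0.07, adjusted p = 0.018). This small increase was no longer called after PD0332991 replicate 2 or 3 was omitted (adjusted p 0.0573 and 0.0634), nor after vehicle replicate 1 or 2 was (0.064 and 0.063).

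**Figure D3:**
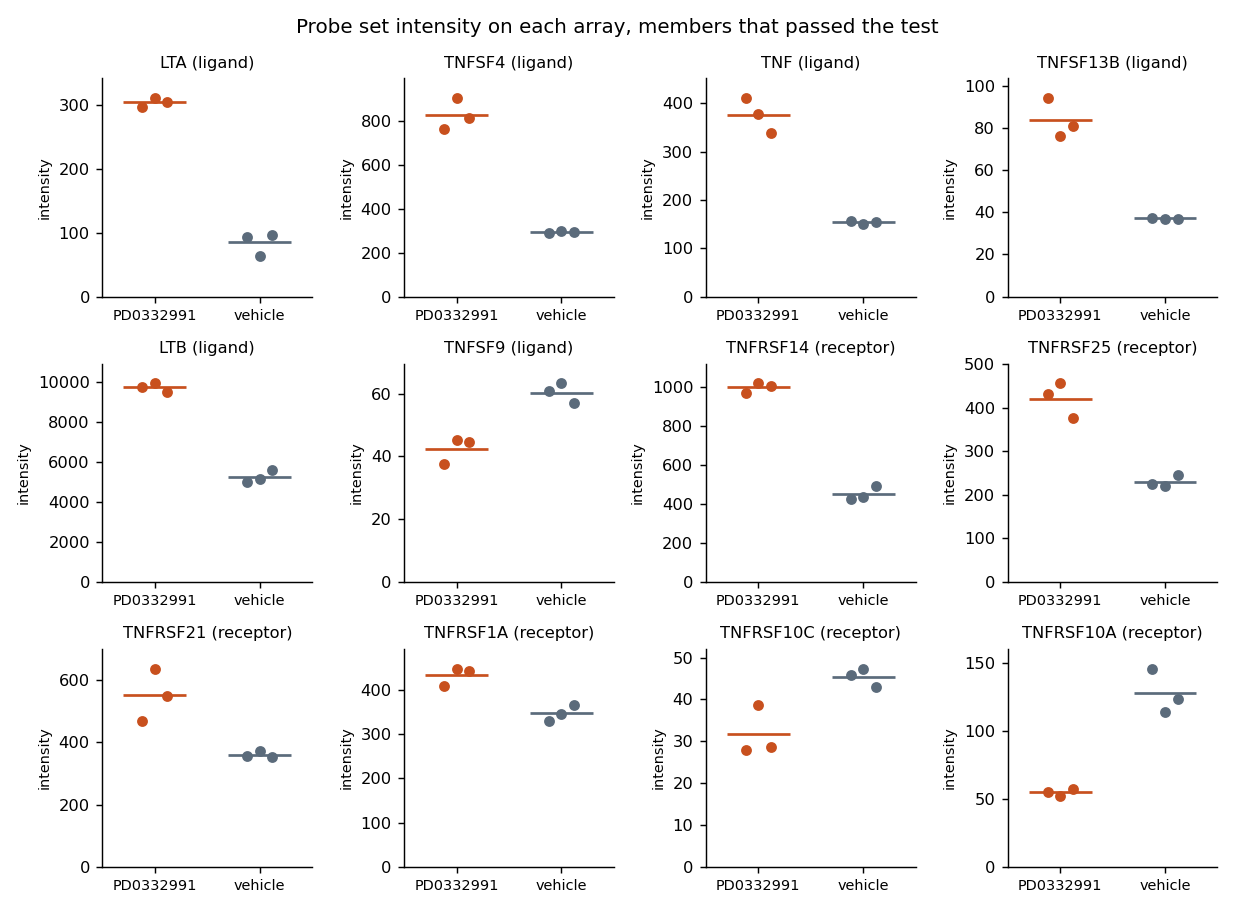
Probe set intensity (y axis, linear from 0) on each of the 3 PD0332991 and 3 vehicle arrays for the 12 members that passed the test, with group means as lines. The groups do not overlap in any panel, and TNFSF9, TNFRSF10C and TNFRSF10A are lower with PD0332991.

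The groups did not overlap for 15 of the 45 members, 3 of which, TNFSF8, TNFRSF10B and TNFRSF10B-AS1, were not called, beside 43.0% of all genes without overlap.

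Of the 4 TNFRSF10 genes, which encode TRAIL receptors, 2 fell and none rose. Over all genes 13.6% were called lower and 15.6% higher, and whether these 4 genes differ from that was not tested. TNFSF10 encodes TRAIL, a ligand that triggers apoptosis through TNFRSF10A (DR4) and TNFRSF10B (DR5), while TNFRSF10C and TNFRSF10D are decoy receptors that lack a working death domain. TNFRSF10A had 55.0, 52.4 and 57.5 with PD0332991, against 146, 114 and 123 with vehicle. It fell by 1.01 on the log2 scale (SE 0.09, adjusted p = 5.9e-04), and a second of its 3 probe sets fell by 0.62. With a pseudocount of 64 the log2 fold change was −0.69, and averaging its 3 probe sets gave −0.59.

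TNFRSF10B had 475, 429 and 476 with PD0332991, against 406, 411 and 428 with vehicle, a log2 fold change of 0.14 (95% confidence interval −0.02 to 0.30) that did not pass. Its other probe sets, all dimmer, gave 0.33, 0.38 and −0.43, outside that interval, and did not pass. TNFRSF10C was dim, at 28.0, 38.5 and 28.7 with PD0332991, against 45.9, 47.4 and 43.0 with vehicle. Its log2 fold change was −0.37 (SE 0.10, adjusted p = 0.034). TNFRSF10C was not called after PD0332991 replicate 1 or 3 or any 1 vehicle replicate was omitted (adjusted p 0.0578 to 0.105), which leaves TNFRSF10A as the 1 receptor called lower. Nor was it called after averaging its probe sets (−0.19, adjusted p = 0.0869) or with a variance trend (adjusted p = 0.0676). TNFRSF10D stood at 0.06 and did not pass. The 4 TNFRSF10 genes are adjacent on chromosome 8 and resemble each other in sequence, and cross-hybridisation between them was not tested.

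For TNFSF10 the result depends on the probe set. The brightest, used here, had 3230, 2695 and 2653 with PD0332991, against 2573, 2736 and 2135 with vehicle, with overlapping groups and a log2 fold change of 0.21 (adjusted p = 0.290). The second had 2439, 2309 and 2249 with PD0332991, against 1178, 1199 and 1369 with vehicle, a log2 fold change of 0.90 (adjusted p = 8.8e-04 in the fit of all probe sets). The third had 1176, 1116 and 1034 with PD0332991, against 584, 579 and 642 with vehicle, and gave 0.86 (adjusted p = 8.7e-04). Averaged over all 3, TNFSF10 stood at 0.65 (adjusted p = 8.7e-04), and the brightest probe set carries the _x suffix.

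CD40, the receptor for CD40 ligand that is best known from B cells and antigen-presenting cells, also differed between probe sets. Its brightest probe set, which has no _x or _s suffix, had 259, 304 and 266 with PD0332991, against 234, 264 and 243 with vehicle. That log2 fold change of 0.15 did not pass. The other 3 probe sets were called higher but, unlike those of TNFSF10, were dim, with both group means below the median of all genes. One had 72.4, 64.4 and 67.2 with PD0332991, against 22.5, 23.7 and 20.6 with vehicle, a log2 fold change of 1.13, and the others gave 1.23 and 0.95. Averaged over all 4 probe sets, CD40 stood at 0.87 (adjusted p = 8.3e-04).

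Across the family 25 members had more than 1 probe set and 20 had 1. No member had probe sets called in both directions. For TNFSF13B and TNFRSF21 both probe sets were called, and for LTB, TNFRSF25, TNFRSF10A and TNFRSF10C the brightest was called and at least 1 other was not. Only TNFSF10 and CD40 had a called probe set beside an uncalled brightest one, and for 17 members no probe set was called.

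**Figure D4:**
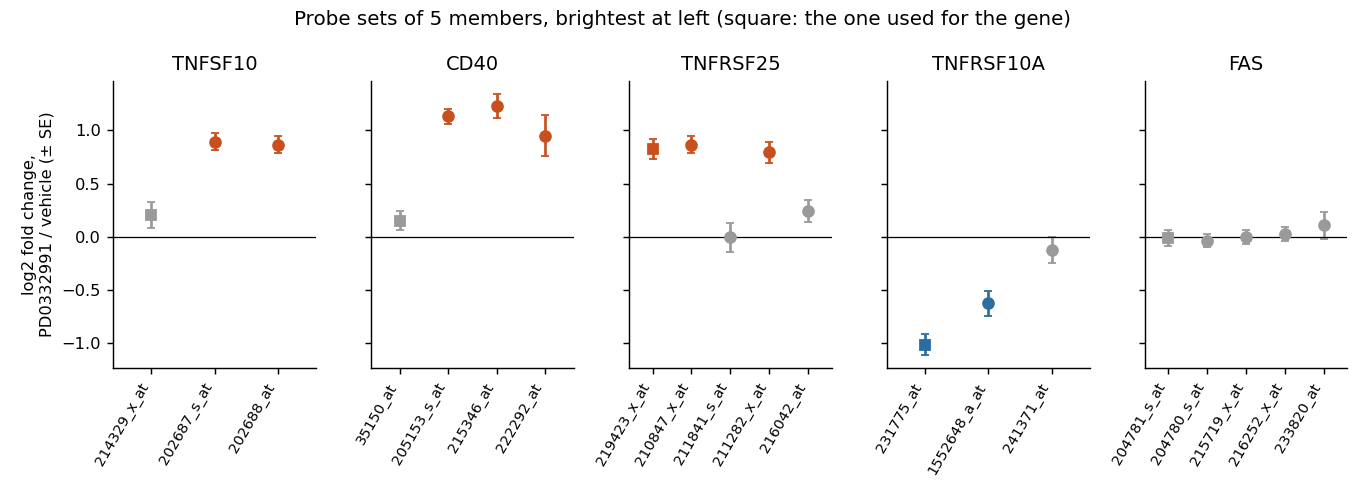
Log2 fold change (± SE, y axis) for each probe set (x axis, brightest at left) of TNFSF10, CD40, TNFRSF25, TNFRSF10A and FAS, chosen after their values were seen. The squares mark the probe sets used for the genes, at 0.21 for TNFSF10 and 0.15 for CD40, below the other probe sets of these genes.

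FAS, the death receptor that limits activated T cells, did not pass on any of its 5 probe sets. Its intensity was 803, 880 and 806 with PD0332991, against 847, 885 and 778 with vehicle, fully overlapping. The log2 fold change was −0.01 with a 95% confidence interval of −0.19 to 0.17, and its 4 brighter probe sets ran between −0.04 and 0.03. FASLG, its ligand, was dim, at 50.4 ± 9.78 with PD0332991 and 47.9 ± 16.6 with vehicle (SD, n = 3 each).

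Other brighter members did not pass. CD27, a costimulatory receptor of T cells, had 117, 118 and 115 with PD0332991, against 92.6, 86.8 and 127 with vehicle. Its ligand CD70 had 273, 235 and 279 with PD0332991, against 182, 190 and 277 with vehicle. In both genes vehicle replicate 3 was the array that overlapped the treated ones, and without it CD27 gave 0.33 (adjusted p = 0.0147) and CD70 0.46 (adjusted p = 0.0207). TNFRSF4, the OX40 receptor, had 101, 125 and 88.9 with PD0332991, against 128, 101 and 105 with vehicle. EDAR, the ectodysplasin receptor of skin appendages, had 177, 148 and 155 with PD0332991, against 157, 158 and 161 with vehicle.

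Ligands and receptors that pair with each other were set side by side where both lay above the median of all genes. TNF at 1.20 and TNFRSF1A at 0.31 both rose. TNFSF4 rose by 1.44 and its receptor TNFRSF4, at −0.08 (95% confidence interval −0.41 to 0.25), did not pass. TNFSF10 at 0.21 on its brightest probe set stood beside TNFRSF10A at −1.01 and TNFRSF10B at 0.14. CD70 at 0.28 and CD27 at 0.18 did not pass. LTA at 1.68, which also binds TNFRSF1A and TNFRSF14, stood beside 0.31 and 1.12 for these receptors. Some pairs had a partner below the median, among them those with LTBR, the lymphotoxin receptor of stromal cells, at 34.3 ± 8.01 with PD0332991 and 37.4 ± 4.66 with vehicle (SD, n = 3 each).

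The remaining 24 members were dim and did not pass. They comprise 7 ligands, 15 receptors and the transcripts TNFRSF10A-DT and TNFRSF10B-AS1, with group means between 1.36 for TNFSF13 and 74.0 for TNFRSF13C and log2 fold changes between −0.34 for EDA2R and 0.46 for TNFRSF13C. TNFRSF9 and TNFRSF18, the members just below the median, stood at 0.08 and −0.22. TNFRSF1B, the TNF receptor of lymphocytes, was at 47.2 ± 6.84 with PD0332991 and 49.5 ± 9.37 with vehicle (SD, n = 3 each). The BAFF receptors TNFRSF13C, TNFRSF13B and TNFRSF17 had log2 fold changes of 0.46, −0.21 and 0.05. Among these 24, TNFSF8 passed without vehicle replicate 2 (0.40, adjusted p = 0.0181), TNFSF13 without PD0332991 replicate 2 (0.51, adjusted p = 0.0098) and TNFRSF10A-DT without vehicle replicate 3 (0.33, adjusted p = 0.0161). The files carry no detection calls, so a dim value cannot be told from background.

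Around the receptors, 14 of 33 measured (of 37 listed) adaptor and proximal signalling genes were called, 11 higher and 3 lower, with a median log2 fold change of 0.14. CYLD, a deubiquitinase that limits NF-κB signalling, rose to 631 with PD0332991, against 266 with vehicle, a log2 fold change of 1.19. TNFAIP3, which encodes the NF-κB inhibitor A20, rose by 0.98. CASP10 and CASP8, the initiator caspases of death receptors, rose by 1.01 and 0.71, and CASP8 gave 0.18 (adjusted p = 0.421) on a probe set with no _x or _s suffix. FAF1, a FAS-associated factor, fell by 0.73, and its probe set with no suffix gave −0.08 (adjusted p = 0.723). OTULIN, a deubiquitinase of linear ubiquitin chains, fell by 0.61. The smaller calls of ADAM17 at 0.25 and DAXX at −0.23 ended with the replicate number as a block (adjusted p 0.0661 and 0.0916). They also ended under median centring (0.0919 and 0.0774). CFLAR, the caspase-8 inhibitor FLIP, was at 0.28 (adjusted p = 0.075), and its mean over probe sets was 0.55 (adjusted p = 0.0015). On a probe set with no _x or _s suffix CFLAR gave 0.86 (adjusted p = 0.0029).

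Of 11 measured NF-κB core genes 3 rose and 1 fell, with a median of 0.07. RELB, a subunit of the non-canonical pathway, rose by 0.73, the kinase gene IKBKB by 0.33 and NFKB1 by 0.30. NFKB2, the partner of RELB, was called lower at −0.64 (adjusted p = 0.018). That call ended once PD0332991 replicate 2 or 3 was omitted (0.0619 and 0.0608) or vehicle replicate 1 or 2 was (0.0543 and 0.0509). Its probe set with no suffix gave 0.16 (adjusted p = 0.449). IKBKB was not called with vehicle replicate 2 omitted (0.0516), so that 2 core genes were called there. RELA was at 0.05 and NFKBIA, the main inhibitor and itself an NF-κB target, at 0.07, and neither passed.

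Of 21 measured NF-κB target genes 6 rose and 1 fell, with a median of 0.16. GADD45B, a stress-response gene, rose by 1.14, IER3 by 0.99, the survival gene BCL2A1 by 0.71 and the transcription factor gene IRF1 by 0.71. The chemokine gene CCL4 was dim, at 61.3 with PD0332991 and 27.1 with vehicle, and was called higher by 0.88. It was not called after any 1 PD0332991 replicate or vehicle replicate 1 was omitted (adjusted p 0.0508 to 0.0853), nor with the replicate number as a block (adjusted p = 0.0592). ICAM1, also dim, was called higher by 0.35 (adjusted p = 0.043). Its call ended after any 1 PD0332991 replicate or vehicle replicate 1 or 2 was omitted (adjusted p 0.056 to 0.13). It also ended with the replicate number as a block (adjusted p = 0.104), and its mean over probe sets was 0.10 (adjusted p = 0.52). SOD2, the mitochondrial superoxide dismutase, fell by 0.59. GADD45B was also called on its probe set with no suffix, at a smaller 0.30 (adjusted p = 0.0282). The share called was 42.4% for the adaptors, 36.4% for the core genes and 33.3% for the targets, beside 29.3% of all genes. Most adaptors and all core genes were brighter genes, of which 49.5% were called over all genes. Among brighter genes, 13 of 30 adaptors (43.3%), 4 of 11 core genes (36.4%) and 5 of 10 targets were called. The adaptors and core genes thus lay below that share and the targets near it. By direction, these were 10 adaptors higher and 3 lower, 3 core genes and 1, and 4 targets and 1. Over all brighter genes 25.9% were called higher and 23.6% lower, and the balance of directions in the lists was not tested.

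**Figure D5:**
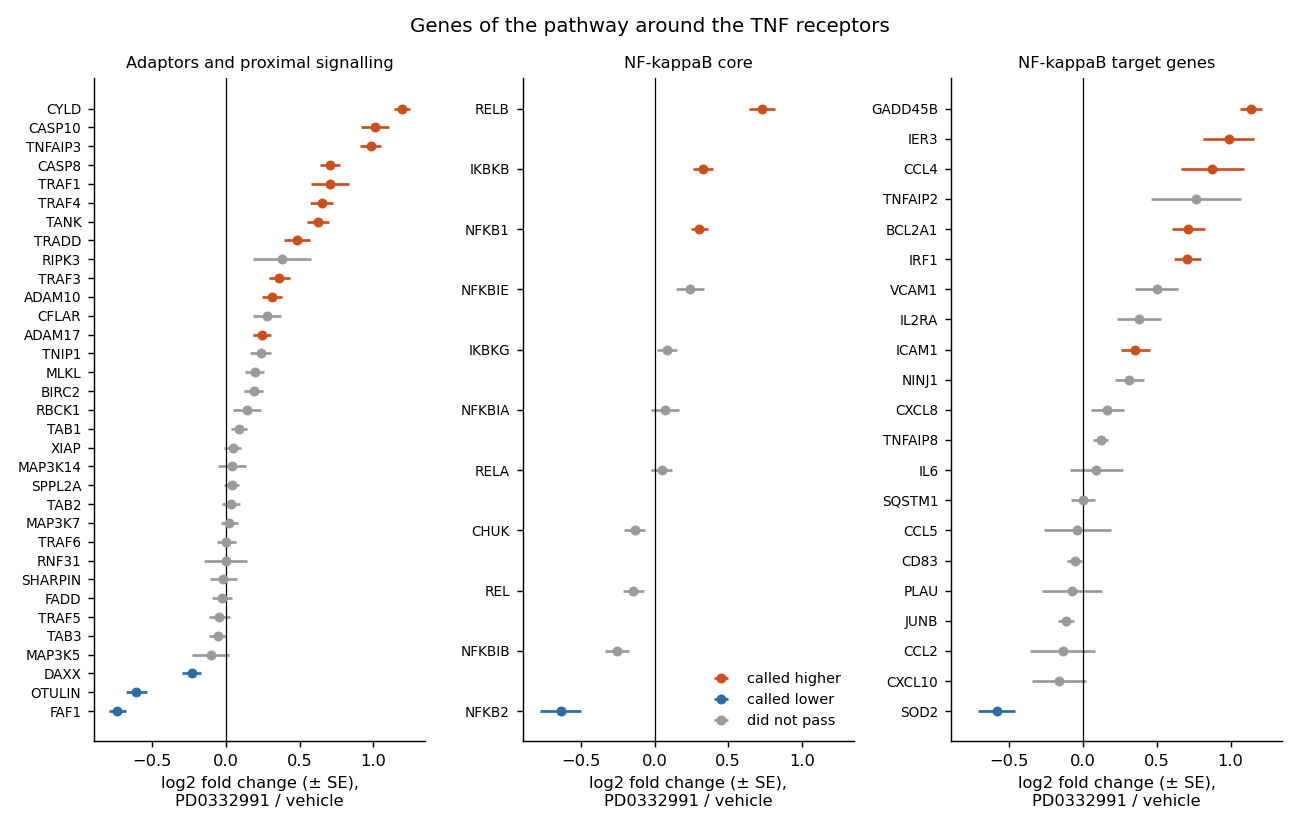
Log2 fold change (± SE, x axis) of each measured gene (y axis) in 3 lists, the receptor adaptors and proximal signalling genes, the NF-κB core and NF-κB target genes. Genes called higher outnumber those called lower in each list, 11 to 3, 3 to 1 and 6 to 1. Over all genes 15.6% were called higher and 13.6% lower, and among brighter genes 25.9% and 23.6%. The balance of directions was not tested.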

How the data were processed

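RNA levels were measured in 3 PD0332991 and 3 vehicle samples. The authors deposited intensity values for 54675 probe sets per array on a linear scale, as their range shows, with similar medians on all arrays; summarisation, background correction and scaling are not given in the sources used here. The 62 control probe sets were left out. The platform annotation gave 1 symbol for 41091 probe sets, and the brightest of a gene's probe sets over all 6 arrays stood for it. Symbols were updated by gene ID through RefSeq (GRCh38.p14).

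All 19775 genes were fitted without a filter on log2(intensity + 16) with limma 3.58.1 in R 4.3.3 (lmFit, eBayes, two-sided, 4 residual degrees of freedom); each gene's adjusted p is from limma over all genes. Named were all called members, brighter uncalled members and the 2 members just below the median of all genes. Of each pathway list, up to 5 called genes with the largest changes and up to 2 against the direction of most were named. CFLAR, ADAM17, DAXX, ICAM1, RELA, NFKBIA and single dim members were named after their values were seen. The members and lists were chosen with earlier results of these data known. Alternatives changed the normalization, the pseudocount, the choice of probe set, the filter on dim genes, the threshold, the variance model and the replicate block, or left out 1 array. The fit was tested on simulated data. The number of arrays limits the precision.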

Additional observations from a re-analysis of the deposited data

How the results depend on the processing

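The 12 called members numbered 10 to 14 with 1 array left out, 12 under quantile normalization, median centring and pseudocounts of 1 and 64, 13 with the mean of probe sets, 11 with a variance trend and 14 when any probe set of a member counted. Their number was 8 with _x_at and _s_at probe sets omitted and also 8 at an adjusted p under 0.01. The 9 called higher were 5 with _x_at and _s_at probe sets omitted, where 39 members were measured and TNF, TNFSF4 and TNFRSF1A have no other probe set, and the 3 called lower were 1 among brighter genes and 1 at an adjusted p under 0.01. At that threshold 3 receptors and 16 of the 65 pathway genes were called, 2 of them lower, against 25 and 5 at 0.05. The 5 lower pathway genes were 3 to 5 with 1 array left out and 3 with _x_at and _s_at probe sets omitted. The median log2 fold change of ligands, 0.28, was 0.17 with a pseudocount of 64 and 0.11 with _x_at and _s_at probe sets omitted. It was 1.05 over the 6 brighter ligands, and that of receptors was 0.15 over the 11 brighter ones. LTA among those ligands and TNFRSF10A among those receptors counted as brighter only through the group where they were high. Without _x_at and _s_at probe sets NFKB2 changed sign to 0.16 and TNFAIP8 to −0.65 (adjusted p = 0.0069), from 0.12. The cause of these changes was not tested beyond the smaller number of genes or probe sets. No scaling setting moved the median of all genes, 0.01, by more than 0.1 on the log2 scale, and no member changed sign with a call.

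With the replicate number as a block 12 members were called, 9 higher and 3 lower, and 22 pathway genes, 18 higher and 4 lower. The numbers are not shown to pair the samples. Deviations from the group means of same-numbered arrays correlated at 0.003, 0.076 and 0.083 across genes. Those of differently numbered arrays ran between −0.079 and 0.022. The highest values were thus for same-numbered arrays, replicates 2 and 3, while vehicle replicate 1 correlated best with PD0332991 replicate 2 (0.022).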
